A study of Mus musculus with 6 samples.

Results

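The cathepsins described here are 9 genes whose symbols were looked up in the deposited expression table, Ctsa, Ctsb, Ctsd, Ctse, Ctsh, Ctsk, Ctsl, Ctss and Ctsz, out of 23417 genes with a usable symbol, and all 9 were found once. Their levels were followed over 6 RNA libraries of mouse C57BL/6 bone marrow cells selected for Kit, the receptor for stem cell factor, and transduced with retrovirus. One library carried the empty control vector, and the others carried mutated CSF3R, which binds granulocyte colony-stimulating factor: the tail truncation W791, the tail truncation Q741, the membrane-proximal change T618I, or T618I joined to either truncation (T618I/Q741 and T618I/W791). All cells had been kept with IL-3, IL-6, FLT3 and mouse SCF, sorted for transduction and held overnight before RNA was taken. The series sets constructs with T618I, classed as leukemogenic, against the truncations alone, classed as non-leukemogenic. That gives groups of 3 and 2 libraries beside the single vector library. Each construct was sequenced once and the labels name no separate animals or cultures, so each SD and p-value measures the spread between different constructs. No construct carried the unmutated receptor, so a difference from vector joins the effect of adding a receptor with that of its mutation. The ages of the mice are not given in the labels.

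Cathepsins are proteases of endosomes and lysosomes. Most are made as inactive precursors, tagged with mannose 6-phosphate in the Golgi, carried to the endosome by the receptors for that tag and activated by acid and by cleavage of the propeptide. Macrophages and dendritic cells are rich in them and use them to degrade engulfed material and to process antigen, and cystatins and stefins block the cysteine members by filling the active site cleft. Among the 9 genes, Ctsb, Ctsh, Ctsk, Ctsl, Ctss and Ctsz encode cysteine proteases and Ctsd and Ctse encode aspartic proteases. Ctsa does not fall under either heading, since cathepsin A is a serine carboxypeptidase.

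Many lysosomal genes hold the motif CACGTG, the core of the element bound by TFEB and its relatives, close to their start site, and promoter windows were therefore searched for it on both strands. RefSeq promoter entries (build GRCm38.p6) matched 6 of the 9 genes, and the 250 bases upstream of each start were used, with Ctsb, Ctse and Ctsh having no entry. CACGTG was found in 3 of the 7 windows of these 6 genes, in Ctsa, Ctsd and Ctsl, against 6.02% of all 32851 windows of the table. These windows follow RefSeq starts. In the GENCODE M21 annotation the Ctsl window and the second Ctsa window lie wholly inside their genes, and the Ctsd window partly. The Ctsd window held CACGTG at 2 places, beginning 245 and 98 bases before the RefSeq start, which 0.429% of all windows matched or passed. The windows that carry it are printed 5′ to 3′ on the strand of the gene with CACGTG in capitals. They are followed by that of Ctss, the most abundant cysteine member in every library, with GAGGAA, a core bound by the myeloid factor PU.1, in capitals.
Ctsd, chr7:142387828-142388077, minus strand: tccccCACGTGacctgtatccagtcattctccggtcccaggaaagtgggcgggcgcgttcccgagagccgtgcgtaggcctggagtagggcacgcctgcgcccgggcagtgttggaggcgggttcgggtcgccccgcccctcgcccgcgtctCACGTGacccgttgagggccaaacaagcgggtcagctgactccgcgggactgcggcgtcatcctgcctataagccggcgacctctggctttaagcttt
Ctsa, second start, chr2:164833523-164833772, plus strand: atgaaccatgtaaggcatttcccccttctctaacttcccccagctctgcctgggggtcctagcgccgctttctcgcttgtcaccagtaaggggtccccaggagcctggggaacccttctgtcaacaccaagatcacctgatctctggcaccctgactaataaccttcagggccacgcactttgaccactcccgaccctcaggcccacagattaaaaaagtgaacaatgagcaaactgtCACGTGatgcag
Ctsl, chr13:64370521-64370770, minus strand: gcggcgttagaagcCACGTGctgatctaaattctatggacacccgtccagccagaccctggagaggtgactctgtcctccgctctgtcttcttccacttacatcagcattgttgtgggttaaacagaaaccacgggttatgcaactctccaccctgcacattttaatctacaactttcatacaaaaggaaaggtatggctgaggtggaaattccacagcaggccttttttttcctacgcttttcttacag
Ctss, chr3:95526536-95526785, plus strand: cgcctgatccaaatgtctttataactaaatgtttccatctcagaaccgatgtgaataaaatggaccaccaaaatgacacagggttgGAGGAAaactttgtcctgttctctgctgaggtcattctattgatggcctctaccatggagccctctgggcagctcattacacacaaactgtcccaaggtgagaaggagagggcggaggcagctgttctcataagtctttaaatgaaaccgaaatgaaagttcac
GAGGAA was present in the windows of Ctss and of Ctsk, and in 23.3% of all windows. The GC box GGGCGG was present in the windows of Ctsd, Ctss and Ctsz, overlapped none of the motifs above (its 2 matches in Ctsz share a base with each other), and was present in 32.7% of all windows. TGANTCA, the AP-1 site, and TTCNNNGAA, the STAT site, were in none of the 7 member windows, against 6.75% and 7.02% of all windows. A match gives the presence of letters in a window and was not tested for binding.

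Levels are FPKM, a measure of fragments corrected for transcript length and library depth, which allows levels of different genes to be compared per length. Differences are given on the scale of log2(FPKM + 1), and were tested with limma over the 11188 genes that reached 1 FPKM in at least 2 libraries, with p-values adjusted over all of them and called below 0.05. All 9 cathepsins passed that filter. Approximate depth was 42.2 M fragments for vector and 19.1 to 24.2 M for the others. Kit itself was detected throughout, at 15.1 and 12.6 FPKM in the double mutants (T618I/Q741 first) and between 23.3 and 34.5 FPKM in the remaining libraries. The summed level of 12 neutrophil markers was much higher with T618I, between 19864 and 36033 FPKM, than in the others, between 2613 and 3780 FPKM. Most of each sum came from S100a8 and S100a9, at 11020 and 7240 FPKM in T618I. Of the 12 markers, 2 were lower in T618I than in vector, Ltf and Camp. Another 2 were lower in T618I/W791 than in W791, Camp again and Fcnb. The T618I/W791 library also stood apart from every other library: 10 erythroid markers summed to 1189 FPKM there against 94.0 to 266 FPKM elsewhere, and 14 monocyte and macrophage markers to 992 FPKM against 1506 to 2208 FPKM. In bulk RNA, fewer cells of a type and less RNA of a gene per cell cannot be told apart, and the part that the cell makeup plays in the values below was not tested.

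No cathepsin passed the threshold in any comparison between groups, and 3 patterns in the levels stand beside that. Ctsz and Ctsh were lower and Ctsd was higher in every T618I-containing library than in every library without T618I. Over all genes, 18.2% were lower and 8.04% higher in that way, so such a separation was common. The Ctsd groups overlapped once libraries were scaled to the same total. Ctsl was far higher with T618I/Q741 than anywhere else. With T618I/W791, 8 of the 9 genes were below the W791 library, most of all Ctsh, Ctss and Ctsb. Over the libraries without T618I, Ctsa, Ctsd, Ctsz and Ctss each spanned at most 0.12 on the log2 scale, and Ctsk and Ctse spanned 0.57 and 0.64.

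**Figure D1:**
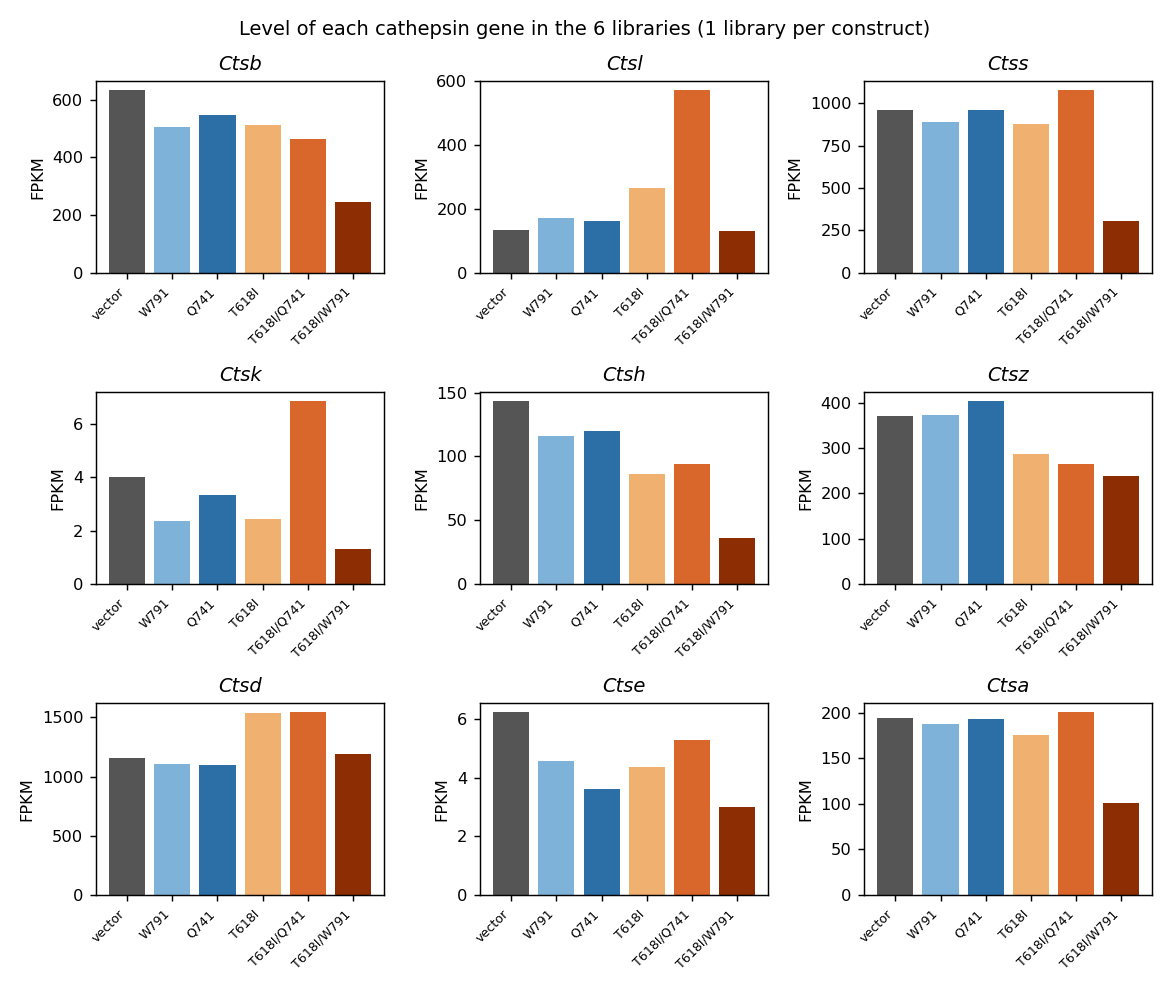
FPKM of each of the 9 cathepsins in the 6 libraries, with 1 bar per library in blue and grey without T618I and in orange to brown with it, each axis starting at 0 and scaled to its gene. Ctsl peaks at 572 FPKM with T618I/Q741, Ctsh and Ctss reach their lowest points with T618I/W791, and Ctsz sits lower in all 3 libraries with T618I than in the others.

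Of the cysteine endopeptidases, Ctsl spanned the widest range on the log2(FPKM + 1) scale, while in FPKM itself the ratio of highest to lowest was wider for the low-level Ctsk. Cathepsin L is a broadly made lysosomal endopeptidase that in mice also takes part in antigen processing in the thymus. The Ctsl level was 132 FPKM in the vector library, 172 in W791, 163 in Q741, 264 in T618I, 572 in T618I/Q741 and 130 in T618I/W791. The 2 highest values belonged to T618I/Q741 and T618I, but T618I/W791 was the lowest of all, so the groups overlapped. The T618I-containing libraries averaged 322 ± 227 FPKM (SD, n = 3) and the truncations 168 ± 6.20 (SD, n = 2), a log2 difference of 0.68 ± 0.60 (SE) with an adjusted p of 0.880 in limma. Without the T618I/W791 library the difference was 1.21 with an adjusted p of 0.336 in limma, and without T618I/Q741 it was 0.14. Adding T618I to Q741 went with a 3.48-fold higher level on the log2(FPKM + 1) scale (log2 difference 1.80), adding it to vector with a log2 difference of 0.99, and adding it to W791 with −0.40.

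Cathepsin S is the endopeptidase that degrades the invariant chain of MHC class II in antigen-presenting cells, and it keeps activity at neutral pH. Ctss was the second most abundant member in every library, at 963 FPKM in the vector library, 888 in W791, 960 in Q741, 875 in T618I, 1078 in T618I/Q741 and 304 in T618I/W791. It therefore lay between 875 and 1078 FPKM in 5 libraries and only T618I/W791 was outside that band, 2.91-fold below W791 on the log2(FPKM + 1) scale. The class difference was −0.48 ± 0.55 (SE) on the log2 scale with an adjusted p of 0.926 in limma. It was 0.07 without the T618I/W791 library, so its direction rests on that library.

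MHC class II genes, which cathepsin S serves, were lower in the same library. Cd74, which encodes the invariant chain, was at 1006 FPKM in the vector library, 899 in W791, 779 in Q741, 623 in T618I, 593 in T618I/Q741 and 180 in T618I/W791. All 8 listed genes of the MHC class II group were at least 2-fold lower with T618I/W791 than with W791, beside 4.26% of all genes. Their median log2 difference was −2.19. The list as a whole called 0 of 8 genes between the classes in limma, with a median of −0.94.

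Cathepsin B acts both as an endopeptidase and as a dipeptidyl carboxypeptidase. Its gene Ctsb was at 633 FPKM in the vector library, 505 in W791, 547 in Q741, 512 in T618I, 465 in T618I/Q741 and 246 in T618I/W791. T618I lay above W791, so the classes overlapped, and vector was the highest library. The class difference was −0.44 ± 0.34 (SE) with an adjusted p of 0.838 in limma, and T618I/W791 stood 2.05-fold below W791 on the log2(FPKM + 1) scale. Without the T618I/W791 library the class difference was −0.11.

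Cathepsin K, the collagen-degrading protease of osteoclasts, was the member at the lowest level in every library but T618I/Q741. Ctsk was at 4.01 FPKM in the vector library, 2.37 in W791, 3.32 in Q741, 2.43 in T618I, 6.86 in T618I/Q741 and 1.29 in T618I/W791. Highest and lowest were again the 2 double mutants, and the remaining libraries lay between them. At these depths the Ctsk values correspond to between about 39.6 and 256 fragments. The class difference was 0.05 ± 0.52 (SE) with an adjusted p of 0.998 in limma, and its sign turned negative under scaling of each library to the same total and without either W791 or T618I/Q741. Ctsk and Ctss lie side by side on chromosome 3, at chr3:95499256-95509362 and chr3:95526786-95556403 on the plus strand of GRCm38 (mm10), with 17423 bases between them.

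Osteoclast markers give the setting for Ctsk. Calcr was listed at 0 in every library, and 5 of the 8 markers passed the filter. The markers summed to between 39.9 and 43.2 FPKM in the libraries other than the double mutants, to 67.5 FPKM with T618I/Q741 and to 24.3 FPKM with T618I/W791. Atp6v0d2, a V-ATPase subunit of osteoclasts and macrophages, was at 35.2 FPKM in T618I/Q741, 4.50 in T618I/W791 and 10.7 to 15.04 in the other libraries, the same order as Ctsk at its extremes. Acp5 was also highest in T618I/Q741, at 9.59 FPKM, and with Atp6v0d2 it carried the higher sum there. The other 3 tested markers did not share that peak: in T618I/Q741 Nfatc1 was at 18.6 FPKM and Tnfrsf11a, the receptor for the osteoclast factor RANKL, at 2.73 FPKM, both below vector, W791, Q741 and T618I, and Dcstamp was at 0.42 FPKM, within its range of 0.30 to 1.45 FPKM over all libraries.

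Ctsh and Ctsz, which encode exopeptidases, had lower levels in all 3 libraries with T618I, though neither passed the threshold. Cathepsin H, an aminopeptidase of lysosomes, was encoded by transcripts at 143 FPKM in the vector library, 116 in W791, 120 in Q741, 86.1 in T618I, 94.2 in T618I/Q741 and 36.2 in T618I/W791. Every T618I-containing library was below every other one, with T618I/W791 far below the rest. The T618I-containing libraries averaged 72.2 ± 31.4 FPKM (SD, n = 3) against 118 ± 2.51 (SD, n = 2) for the truncations, a log2 difference for Ctsh of −0.82 ± 0.43 (SE) with an adjusted p of 0.692 in limma. Leaving out T618I/W791 reduced the difference to −0.39.

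Cathepsin Z, a carboxypeptidase also called cathepsin X, showed the most even separation. Ctsz was at 371 FPKM in the vector library, 373 in W791, 404 in Q741, 287 in T618I, 266 in T618I/Q741 and 239 in T618I/W791. The 3 libraries with T618I lay between 239 and 287 FPKM and the 3 without it between 371 and 404, with no overlap. Means were 264 ± 24.3 FPKM (SD, n = 3) with T618I and 389 ± 21.5 (SD, n = 2) for the truncations, a log2 difference of −0.56 ± 0.14 (SE), 1.47-fold lower, and an adjusted p of 0.368 in limma. When the vector library was pooled with the truncations, giving 383 ± 18.2 FPKM (SD, n = 3), the difference was −0.54 ± 0.11 (SE) and the adjusted p 0.0964 in limma. That was the smallest adjusted p of any cathepsin. Unlike the other cysteine members, Ctsz differed little between the double mutants, by 0.15 on the log2 scale, or 0.34 under median-ratio scaling.

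The aspartic protease cathepsin D, a main lysosomal endopeptidase in most cells, had the highest level of the 9 in every library. Ctsd was at 1156 FPKM in the vector library, 1104 in W791, 1101 in Q741, 1541 in T618I, 1542 in T618I/Q741 and 1192.5 in T618I/W791. All libraries with T618I were above all others, but the gap from vector to T618I/W791 was narrow, and it closed when each library was scaled to the same total. Means were 1425 ± 202 FPKM (SD, n = 3) and 1103 ± 2.10 (SD, n = 2), a log2 difference of 0.36 ± 0.16 (SE) with an adjusted p of 0.608 in limma. Ctsd was the 1 member not lower with T618I/W791 than with W791, at a log2 difference of 0.11.

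Cathepsin E, an aspartic protease of endosomes in immune cells, was made at a low level. Ctse was at 6.23 FPKM in the vector library, 4.58 in W791, 3.63 in Q741, 4.37 in T618I, 5.29 in T618I/Q741 and 3.02 in T618I/W791. Vector was the highest and the classes overlapped. The difference between the classes was 0.01 ± 0.23 (SE) with an adjusted p of 0.999 in limma, and it turned negative under several of the alternative settings.

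Cathepsin A forms a complex with the lysosomal enzymes encoded by Neu1 and Glb1 and protects them. Ctsa was at 195 FPKM in the vector library, 188 in W791, 193 in Q741, 176 in T618I, 200.4 in T618I/Q741 and 101 in T618I/W791. Of these, 5 libraries lay between 176 and 200.4 FPKM and T618I/W791 lay well below that band. The class difference was −0.31 ± 0.31 (SE) with an adjusted p of 0.906 in limma, and −0.02 without the T618I/W791 library. Neu1, which its product stabilises, was at 22.7 FPKM with W791 and 25.5 with T618I/W791, a log2 difference of 0.16, where Ctsa differed by −0.88. Glb1, the other partner, was at 46.4 and 26.0 FPKM in those libraries, a log2 difference of −0.81, close to that of Ctsa.

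**Figure D2:**
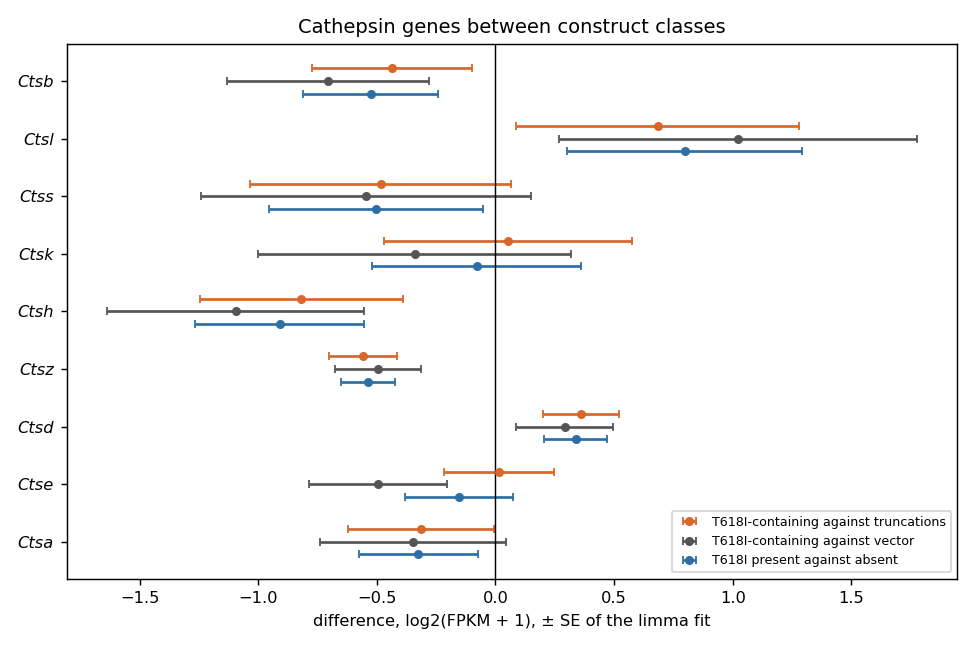
Log2 differences of the 9 cathepsins with their standard errors from limma, for T618I-containing libraries against truncations (orange), against vector (grey), and for T618I present against absent (blue). Ctsz lies at −0.56, −0.49 and −0.54 with the narrowest error bars in each comparison, and no cathepsin passed the adjusted threshold.

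Counted over the members, 0 of 9 were called between T618I-containing libraries and truncations, where 0.179% of all genes tested were called higher and 0.0179% lower in limma. At an unadjusted p below 0.05 that comparison held 1 cathepsin, Ctsz, on the lower side, against 4.86% of all genes lower and 4.16% higher. Ctsd alone had no overlap on the higher side, against 9.22% of all genes, and Ctsh and Ctsz had none on the lower side, against 21.1%. With each library scaled to the same total, Ctsd overlapped, and 4 members had no overlap on the lower side, Ctsa, Ctsb, Ctsh and Ctsz. The median difference of the 9 was −0.31 beside −0.07 over all genes, of which 65.3% were below 0.

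Against the single vector library, 0 of 9 were called, beside 0.134% of all genes higher and 0.0268% lower in limma. At an unadjusted p below 0.05 Ctsz was again the 1 member, on the lower side, where 5.13% of all genes were lower and 3.38% higher. The largest differences on the log2 scale were −1.09 ± 0.54 (SE) for Ctsh and 1.02 ± 0.75 (SE) for Ctsl, with adjusted p-values of 0.693 and 0.855 in limma. Without T618I/W791 they were −0.66 for Ctsh and 1.55 for Ctsl, and without T618I/Q741 the difference for Ctsl was 0.48. This comparison uses the same 3 libraries with T618I as the others, so their values are set side by side and are not independent.

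With vector and truncations pooled, 0 of 9 were called, beside 0.67% of all genes higher and 0.197% lower in limma. At an unadjusted p below 0.05 there were 3 members, Ctsz and Ctsh lower, where 9.8% of all genes were lower, and Ctsd higher, where 6.08% were. The same 3 had no overlap, beside 8.04% of all genes higher and 18.2% lower, and scaling to the same total again left Ctsa, Ctsb, Ctsh and Ctsz, all lower. Adjusted p-values in limma were 0.287 for Ctsh, at a difference of −0.91 ± 0.36 (SE), and 0.289 for Ctsd, at 0.34 ± 0.13 (SE).

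Setting single libraries side by side shows where the members differed by construct, without a replicate check. Adding T618I to vector put 0 of 9 members past 2-fold, beside 2.73% of all genes higher and 1.27% lower, and Ctsl came closest. Adding T618I to Q741 put Ctsl alone past 2-fold on the higher side and none on the lower side, beside 4.74% and 1.89% of all genes. Adding T618I to W791 put none on the higher side, beside 2.34%, and 3 on the lower side, Ctsh at −1.66, Ctss at −1.54 and Ctsb at −1.04 on the log2 scale, beside 4.26% of all genes lower. The median over the members was −0.31, 0.17 and −0.64 in the 3 pairs, beside −0.07, −0.16 and −0.0041 over all genes. These shares of all genes describe the libraries and make no test of the members.

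**Figure D3:**
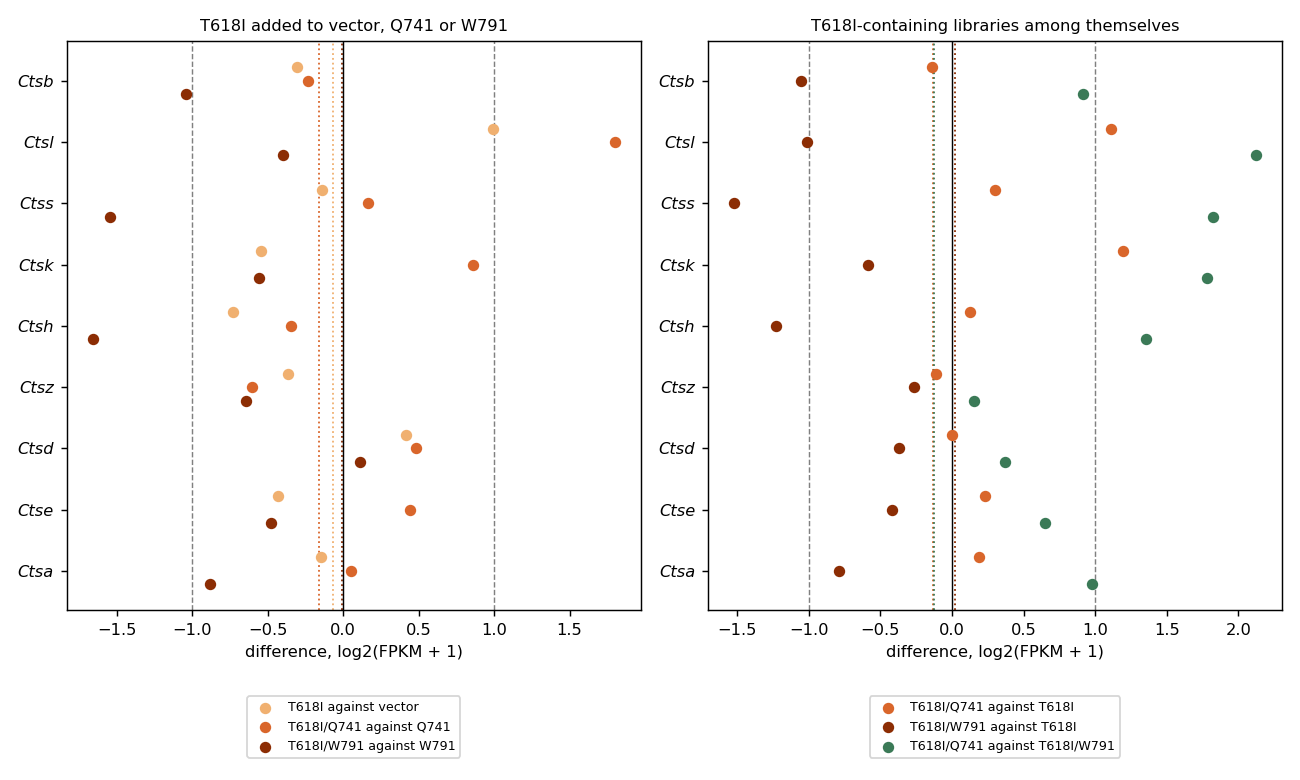
Log2 difference of each cathepsin, 1 library a side, when T618I is added to vector, to Q741 and to W791 (left) and between the libraries with T618I (right), with dashed lines at 2-fold and dotted lines at the median of all genes in each pair. In the left panel, with W791 all members but Ctsd lie below 0, and with Q741 Ctsl stands highest at 1.80.

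Adding a truncation to T618I divided the members by which truncation it was. T618I/Q741 was past 2-fold above T618I for Ctsk, at 1.19, and Ctsl, at 1.11 on the log2 scale, beside 1.99% of all genes higher, with none lower beside 1.47%. T618I/W791 was past 2-fold below T618I for Ctss, Ctsh, Ctsb and Ctsl, at −1.52, −1.23, −1.05 and −1.01, beside 3.09% of all genes lower, with none higher beside 1% of all genes. All 9 members were below T618I in that pair, beside 47.5% of all genes. Between the double mutants, all 9 were higher with T618I/Q741, while 58.1% of all genes were lower with it. On the log2(FPKM + 1) scale, 4 members were past 2-fold, beside 5.88% of all genes. They were Ctsl at 2.13, Ctss at 1.82, Ctsk at 1.78 and Ctsh at 1.36. None was past 2-fold the other way, beside 7.58% of all genes. In FPKM itself the order differed, with Ctsk 431% higher, Ctsl 339%, Ctss 254% and Ctsh 160% higher, since adding 1 compresses the low values of Ctsk. These pairs share the T618I or double mutant library with one another.

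The libraries with T618I also differed more among themselves. Ctsl spanned 0.38 on the log2 scale over the 3 libraries without T618I and 2.13 over the 3 with it, and Ctss spanned 0.12 and 1.82. The median span of the 9 was 0.30 without T618I and 1.05 with it, beside 0.16 and 0.49 over all genes. Ctse spanned 0.64 and 0.65, and Ctsz 0.12 and 0.27.

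Summed per length, the 9 cathepsins made up 3604 FPKM in the vector library, 3354 in W791, 3495 in Q741, 3748 in T618I, 4229 in T618I/Q741 and 2253 in T618I/W791. That is 0.785%, 0.743%, 0.795%, 0.803%, 0.860% and 0.468% of all FPKM in that order. The T618I/W791 library was the only one below 0.7%. Its makeup differed too. Ctsd gave 52.9% of the sum there, 41.1% with T618I and 36.5% with T618I/Q741, against 31.5% to 32.9% without T618I. Ctss gave 13.5% with T618I/W791 against 23.4% to 27.5% elsewhere. Ctsl gave 13.5% with T618I/Q741 against 3.67% to 7.04% elsewhere.

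The 6 cysteine members summed to 956 FPKM with T618I/W791 and to between 2027 and 2481 FPKM elsewhere. The aspartic members summed to 1196 FPKM with T618I/W791, within the range of 1105 to 1548 FPKM over the other libraries.

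**Figure D4:**
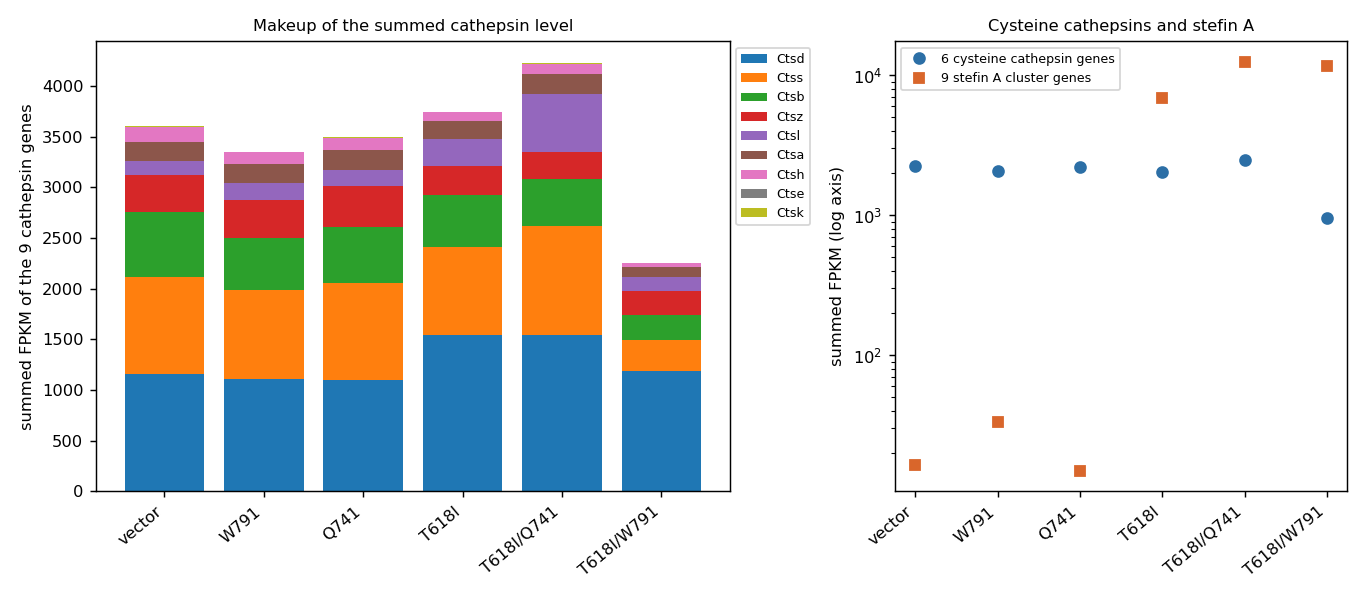
Left, summed FPKM of the 9 cathepsins in each library as stacked bars, 1 colour per gene. Right, summed FPKM of the 6 cysteine cathepsins (circles) and of 9 stefin A genes (squares) on a log axis, where the cysteine sum is lowest in T618I/W791 at 956 FPKM and the stefin sum exceeds it in all 3 libraries with T618I and in no other.

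Inhibitor genes moved on another scale. Stefin A genes encode intracellular inhibitors of cysteine cathepsins, and all 9 listed genes of that cluster rose in the T618I-containing libraries in limma, from a log2 difference of 3.75 for BC117090 to 9.79 for Stfa2. That list was chosen with their rise in these libraries already known. Near-identical copies in the cluster can share reads, so the values of single genes are uncertain. Their summed level was 3.36 FPKM per FPKM of cysteine cathepsins in T618I, 5.01 in T618I/Q741 and 12.1 in T618I/W791. The same ratio was 0.00730 in vector, 0.0162 in W791 and 0.00679 in Q741. The highest ratio, with T618I/W791, paired a stefin sum of 11589 FPKM, below the 12443 FPKM of T618I/Q741, with the lowest cysteine sum. Ratios of transcripts do not give ratios of protein.

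Cystatins outside that cluster did not share the pattern. Cstb, the stefin B gene, lay between 249 and 320 FPKM in all libraries, and its class difference of −0.09 was the highest of its list. Cst3, the secreted cystatin C, had the lowest at −0.50, with 528 FPKM in W791 and 244 FPKM in T618I/W791. The 3 tested genes of 4 gave 0 calls and a median of −0.14.

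Other lysosomal genes were read as lists beside the cathepsins, and none of their members was called between the classes in limma. Over all genes, 65.3% were below 0 in that comparison. Of 7 tested proteases from 8 listed, all outside the 9, 6 were below 0 with a median of −0.42. Ctsc, the dipeptidyl peptidase that activates granule serine proteases, was lowest at −0.59 with an adjusted p of 0.319 in limma. It was at 213 FPKM in the vector library, 308 in W791, 330 in Q741, 228 in T618I, 196 in T618I/Q741 and 211 in T618I/W791. The T618I-containing libraries differed from vector by −0.01 for Ctsc. Ctsg, a neutrophil granule serine protease, was highest between the classes at 0.03. Lgmn, which encodes the asparaginyl protease legumain, and Napsa, which encodes an aspartic protease, were named after their values were seen. Lgmn stood at 118 FPKM with W791 and 40.3 with T618I/W791, and Napsa at 217 and 104.

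Among 12 genes for sorting enzymes to the lysosome, 9 were below 0 with a median of −0.25. Gnptab, which makes the mannose 6-phosphate tag, was lowest at −0.55 and Sort1, the sorting receptor sortilin, highest at 0.55. Of 26 other hydrolases, 21 were below 0 with a median of −0.26, from −0.51 for Lipa, the acid lipase, to 0.19 for Neu1. Of 12 membrane proteins, 11 were below 0 with a median of −0.17, from −0.41 for Cd68, a macrophage glycoprotein, to 0.19 for Cd63.

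The 17 V-ATPase subunits, which acidify the compartment, had a median of −0.07, as all genes did, from −0.43 for Tcirg1 to 0.23 for Atp6v0d2. Of 8 transcription factors that act on lysosomal or cathepsin genes, all were below 0, from −1.09 for Irf8, a monocyte and dendritic cell factor, to −0.11 for Spi1, which encodes PU.1. Tfeb was at 16.1 FPKM in the vector library, 16.9 in W791, 15.1 in Q741, 12.6 in T618I, 15.9 in T618I/Q741 and 8.97 in T618I/W791.

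Between T618I/W791 and W791 these lists did not all stand alike. Hydrolases were below 0 in 24 of 26 genes with a median of −0.40, membrane proteins in 12 of 12 with a median of −0.45, and V-ATPase subunits in 9 of 17 with a median of −0.02, beside −0.0041 over all genes. The median of the cathepsins was −0.64. Of 14 monocyte and macrophage markers all were below 0 and 9 were at least 2-fold lower, with a median of −1.23. Over all genes in this pair, 50.3% were below 0 and 4.26% were at least 2-fold lower. Csf1r, the receptor for macrophage colony-stimulating factor, was at 266 FPKM in the vector library, 266 in W791, 284 in Q741, 207 in T618I, 185 in T618I/Q741 and 87.3 in T618I/W791. Dendritic cell markers summed to 43.8 FPKM with T618I/W791 against 69.1 to 192 FPKM elsewhere. Most of each sum came from Bst2, at 35.6 FPKM with T618I/W791 and 45.1 to 108 FPKM elsewhere. Of the 7 tested dendritic cell markers, 6 were lower with T618I/W791 than with W791, and Clec9a was higher. The part of these markers in the lower cathepsin levels was not tested.

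**Figure D5:**
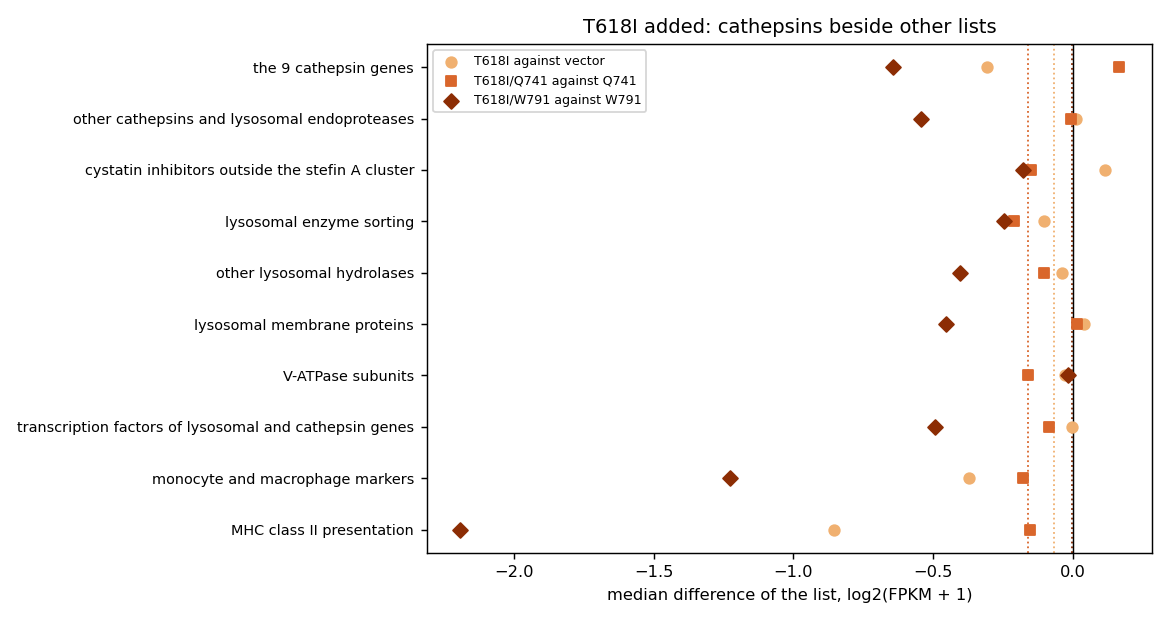
Median log2 difference of each gene list when T618I is added to vector, to Q741 and to W791, 1 library a side, beside the 9 cathepsins, with dotted lines at the median of all genes in each pair. With W791 the MHC class II list lies lowest at −2.19, the macrophage list at −1.23 and the cathepsins at −0.64, while the V-ATPase list lies at −0.02.

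The genes whose profile over the 6 libraries lay nearest to each cathepsin were found by the root mean square difference of centred log2(FPKM + 1) values among 8139 genes at 5 FPKM or more on average. Nearest to Ctsz were Adam17, a membrane sheddase gene, at 0.0343, and Cln8, at 0.0486. Adam17 was at 53.2 FPKM in the vector library, 50.5 in W791, 56.0 in Q741, 41.0 in T618I, 36.5 in T618I/Q741 and 34.2 in T618I/W791, with the 3 libraries with T618I again below the others. Nearest to Ctsl were Ecm1, an extracellular matrix gene, at 0.114, and LOC100038947 at 0.142. Ecm1 was at 26.6, 34.5, 31.4, 50.1, 92.8 and 25.4 FPKM in the same order, with its peak in T618I/Q741 as for Ctsl.

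Nearest to Ctsa was Mertk, a phagocytic receptor of macrophages, at 0.0313, with Kif1c at 0.0486. Ctss had Amz1 at 0.0740 and Slc15a3, a lysosomal peptide transporter, at 0.0853. Ctsb had Apobec1 at 0.0681 and Gng2 at 0.0724, and Ctsh had Matk at 0.0762 and Scpep1, a serine carboxypeptidase gene, at 0.107. For Ctsd the nearest were Prnp, the prion protein gene, at 0.0679, and Creld1 at 0.0695. The low members had Fbrsl1 at 0.0535 and Pgls at 0.0637 for Ctse, and Scand1 at 0.167 and Insl6 at 0.171 for Ctsk. All of these were chosen for likeness over only 6 libraries, which share the large differences described above.

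The genes lie on several chromosomes of GRCm38 (mm10), by GENCODE M21. Ctsa and Ctsz are both on chromosome 2, at chr2:164832873-164841032 on the plus strand and chr2:174427493-174439039 on the minus strand. Ctsb is at chr14:63122462-63145923 and Ctsh at chr9:90054152-90076089, both on the plus strand, and Ctse is at chr1:131638306-131675505 on the plus strand. Ctsd is at chr7:142375911-142388038 and Ctsl at chr13:64359337-64370890, both on the minus strand. FPKM was given per gene, so exons and transcripts of a gene are not separated.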

How the data were processed

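RNA from 6 libraries was sequenced with stranded TruSeq mRNA libraries, per the labels' protocols. The authors deposited a table of a gene symbol and 1 value per library, whose header names no unit and which was read as FPKM, since its columns sum to between 439505 and 492025. Per the submitters' processing notes, TopHat and Cufflinks were used with mm10. For versions, gene annotation and strand use, nothing is given in the sources used here. The letters in the double-mutant column names were matched to those of the titles.

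Of 23444 rows, 27 with a symbol turned into a date were left out. Values were used as log2(FPKM + 1) without further scaling, which understates differences of low genes, and a gene was tested if it reached 1 FPKM in at least 2 libraries. Limma 3.58.1 in R 4.3.3, with a mean-variance trend, fitted 3 group means (T618I-containing, truncations, vector; 3 residual degrees of freedom) or T618I present and absent (4 residual degrees of freedom) to all 11188 genes tested, with Benjamini-Hochberg adjusted p-values called below 0.05. The single vector library was taken to vary as the others do. Pairs of single libraries were described by a 2-fold threshold with no test. The fit of T618I-containing libraries against truncations was also run on simulated data with independent normal noise per gene. The other comparisons were not simulated.

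Depth was approximated from the value steps of 2703 genes with a single transcript of 1000 to 5000 bases. The labels name no separate cultures or animals. Alternatives were another pseudocount, no filter, 2 scalings, no trend, the construct's tail as a block and leaving out each library. All 9 members were named, with the 2 nearest profiles for each, and for each list of related genes those past the threshold and the highest and lowest difference. The members, lists and rules were chosen with earlier results of these data known. Promoter sequences are from RefSeq.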

Additional observations from a re-analysis of the deposited data

Results flagged for a closer look

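For 5 cathepsins the T618I/Q741 library lay above Q741 while T618I/W791 lay below W791. The difference between the additions of T618I to the 2 truncations, on the log2 scale, was 2.20 for Ctsl, 1.71 for Ctss, 1.42 for Ctsk, 0.94 for Ctsa and 0.91 for Ctse. With each library scaled to the same total, Ctsa was no longer higher in T618I/Q741 than in Q741, at −0.11. These differences rest on 1 library per construct, and the difference between the truncations was not tested.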

How the results depend on the processing

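No cathepsin was called in any class comparison under any alternative run. Ctsz kept its direction in all of those fits, as did Ctsa, Ctsb, Ctsd, Ctsh and Ctsl. Counts over all genes moved more. Between the classes the higher count of 20 became 3 without the filter and 146 with the tail as a block over the Q741 and W791 pairs, and ranged from 2 to 30 when libraries were left out in turn, while the lower count of 2 became 68 with that block and ranged from 0 to 5. Against vector the higher count of 15 became 6 without the filter and ranged from 6 to 28, and the lower count of 3 became 16 without the filter, 1 under median-ratio scaling, and ranged from 0 to 6. With T618I present against absent the higher count of 75 became 41 without the filter and ranged from 20 to 121, and the lower count of 22 became 36 with the block over 3 pairs and ranged from 2 to 63. No paired analysis by replicate number was possible because the labels give none.

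The class difference of Ctse was −0.017 with the block and −0.072 with the same total per library, and that of Ctsk was −0.028 with the same total. Leaving out libraries moved Ctse from −0.13 to 0.19, Ctsk from −0.44 to 0.45 and Ctss from −0.84 to 0.073. With T618I present against absent the ranges were −0.31 to 0.022 for Ctse, −0.57 to 0.31 for Ctsk and −0.86 to 0.053 for Ctss, and against vector −0.84 to 0.053 for Ctsk and −0.90 to 0.012 for Ctss. The Ctsk and Ctss values at the top of these ranges lacked T618I/W791. Median-ratio scaling put 1 member, Ctsl, past 2-fold for T618I against vector, and 2 for T618I/Q741 against Q741, as did a pseudocount of 0.1. Between the double mutants, Ctsa and Ctsb were also past 2-fold under median-ratio scaling, higher with T618I/Q741. The log2 ratio of summed cathepsins for T618I against vector was 0.06, −0.15 without Ctsd and 0.13 under median-ratio scaling. For T618I/Q741 against Q741 it was 0.28, 0.17 without Ctsd and 0.46 under that scaling. For T618I/W791 against W791 it was −0.57, and −1.08 without Ctsd. The median of all genes for T618I/Q741 against Q741 was −0.16 as deposited, 0.0053 under median-ratio scaling and −0.30 with the same total per library. The cause of these moves was not tested. Low counts limit Ctsk and Ctse most.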

Other observations

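Mrc1, which encodes the mannose receptor of macrophages, followed the order of Ctsl and Ctsk at its extremes, at 46.8 FPKM with T618I/Q741, 11.6 with T618I/W791 and between 19.5 and 25.7 in the other libraries. Acp5, which encodes the tartrate-resistant acid phosphatase of osteoclasts and macrophages, was at 9.59 FPKM with T618I/Q741 and between 3.71 and 5.12 elsewhere. Both genes were picked after their values were seen. Mrc1 belongs to the list of 14 monocyte and macrophage markers. Of these, 8 were lower in T618I/Q741 than in Q741, among them Csf1r, Cx3cr1, Fcgr1 and Mpeg1. Over all genes, 65.5% were below 0 in that pair, and the medians were −0.18 for the list and −0.16 for all genes. Mast cell and basophil markers summed to 3558 FPKM in T618I, 1066 in T618I/Q741 and 779 in T618I/W791, and to between 2005 and 2334 FPKM in libraries without T618I. None of the 9 cathepsins shared that order of sums. The T618I sum joined opposite moves. Against vector, 7 of 13 markers were lower in T618I, where 61.7% of all genes were below 0. At least 2-fold, 2 were lower and 3 higher, beside 1.27% and 2.73% of all genes. Mcpt8 (386 against 614 FPKM) and Prss34 (78.7 against 393) were among the lower ones. Mcpt1 (444 against 0.147 FPKM) and Mcpt2 (847 against 13.4) were among those that were higher.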
